A study of Mus musculus with 4 samples.

Results

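The genes described here are 35 members of the DNA replication machinery, of 32285 genes counted, in spatial transcriptome sections of injured newborn mouse hearts. The members were chosen by symbol from their known roles: the MCM helicase, factors that license and fire replication origins, the PCNA clamp and its RFC loader, DNA polymerases and primase, single-strand DNA binding proteins, the enzymes that finish Okazaki fragments, the enzymes that supply deoxynucleotides, chromatin factors that follow the fork, and cyclin E. All 35 were found, each with at least 1 UMI (unique molecular identifier, a count of captured RNA molecules) in every section. In ICR mice, a cold probe was held against the apex of the left ventricle for 5 seconds on postnatal day 1, and 1 heart section each was taken 1, 4, 7 and 14 days later (d1, d4, d7 and d14, postnatal days 2, 5, 8 and 15). All 4 groups carried the injury, and no uninjured or sham heart was analysed here, so the time since injury and the age of the pup cannot be told apart. The 10 µm sections were read with Visium, which captures RNA on spots that each cover a small region of tissue and can hold several cells.

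A cell that enters the division cycle loads the MCM helicase onto origins in G1, and cyclin E with its kinase drives the step into S phase. CDC45 and the GINS complex then activate the helicase, primase and polymerases copy the strands on the PCNA clamp, and the supply of dNTPs is raised by ribonucleotide reductase, thymidylate synthase and thymidine kinase. Many of these genes are transcribed together by E2F factors at the G1 to S transition, whereas genes of mitosis (kinesins, cyclin B, spindle checkpoint) are switched on later in the cycle, through CHR elements bound by the DREAM and MuvB complexes. In the mouse heart, cardiomyocytes still divide at birth and leave the cell cycle during the first postnatal weeks, in part by replicating DNA without dividing. The members were therefore set beside 42 mitotic genes and 51 other replication genes of the same libraries.

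The promoters of the members show the difference between these lists in sequence. In the RefSeq promoter table (GRCm38.p6, 250 bases before to 50 bases after each gene's start), 29 of 35 members had an entry, and Rfc2, Mcm4, Ccne2, Gins1, Pole and Gins2 did not. An E2F site was searched on both strands as TTTGGCGC, TTTCCCGC, TTTCGCGC or TTTGCCGC, counting overlapping matches. It lay in 12 of these 29 members (41.4%), in 15 of 43 other replication genes (34.9%), in 1 of 37 mitotic genes (2.7%) and in 2.6% of all 27025 genes of the table. The CHR element, searched as TTTGAA or TTCGAA, had the opposite distribution, with 17.2% of members, 78.4% of mitotic genes (29 of 37) and 21.7% of all genes. CCAAT on either strand, which can share its first letters with the end of an E2F site as in Mcm7 below, lay in 55.2% of members, 78.4% of mitotic genes and 41.1% of all genes. These shares depend on the window. From 100 bases before the start to the start, 10.3% of members held the E2F site against 0.981% of all genes, and 24.3% of mitotic genes held the CHR element against 7.18%. The 12 members with an E2F site were Mcm3, Mcm5, Mcm6, Mcm7, Rfc3, Lig1, Pold1, Cdt1, Cdc6, Uhrf1, Hells and Pola1. The following 30-base windows, read in the direction of the gene, show 8 of them, chosen to span the roles, with the matched letters in capitals (GCGCCAAA, GCGGGAAA and GCGCGAAA are the same sites read from the other strand).
Mcm3 (chr1:20820275-20820304, minus strand): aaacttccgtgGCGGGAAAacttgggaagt
Mcm5 (chr8:75109349-75109378, plus strand): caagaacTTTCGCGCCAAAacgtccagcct
Mcm7 (chr5:138171849-138171878, minus strand): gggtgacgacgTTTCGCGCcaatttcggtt
Cdt1 (chr8:122568035-122568064, plus strand): gggaactaccttTTTGGCGCcatggcgcaa
Cdc6 (chr11:98908002-98908031, plus strand): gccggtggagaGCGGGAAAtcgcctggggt
Rfc3 (chr5:151651190-151651219, minus strand): cTTTCGCGCtcGCGGGAAAactctactgtc
Lig1 (chr7:13278841-13278870, plus strand): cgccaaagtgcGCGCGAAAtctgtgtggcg
Uhrf1 (chr17:56304117-56304146, plus strand): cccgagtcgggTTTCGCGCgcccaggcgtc
In Mcm5, 2 matches overlap within 1 run of capitals, and Rfc3 holds 2 separate matches within its window. Mcm6 held 3 matches, all in the 120 bases before its start, where 2 overlap in the first run of capitals.
Mcm6 (chr1:128359706-128359825, minus strand): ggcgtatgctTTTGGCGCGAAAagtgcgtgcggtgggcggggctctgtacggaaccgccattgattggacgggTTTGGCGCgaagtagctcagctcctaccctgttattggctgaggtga
For comparison, 4 of the most abundant mitotic genes show the CHR element in capitals.
Cenpa (chr5:30666890-30666919, plus strand): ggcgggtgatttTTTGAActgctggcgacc
Ube2c (chr2:164769888-164769917, plus strand): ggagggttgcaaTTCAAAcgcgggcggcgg
Cdk1 (chr10:69352910-69352939, minus strand): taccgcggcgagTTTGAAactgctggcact
Mki67 (chr7:135716460-135716489, minus strand): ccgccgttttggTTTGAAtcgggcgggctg

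The files held 448, 665, 776 and 1178 spots at d1, d4, d7 and d14, of which 445, 662, 774 and 1175 had 500 or more UMIs and were used. Median UMIs per spot were 7810, 7998, 8028 and 3770, and mitochondrial genes took 5.57%, 5.17%, 11.6% and 8.54% of UMIs. Levels are given as CPM, the UMIs of a gene per 1000000 UMIs of the section without haemoglobin and mitochondrially encoded genes, and are not divided by transcript length. Sections shared 248 to 754 spot barcodes in pairs, which are positions on the slide and not shared cells. With 1 section a day no spread between hearts can be given. Unless said otherwise, every interval below is an exact 95% interval that covers counting error only, so no test was made and no p-value is given. All 9 cardiomyocyte markers were detected in every section, with summed levels of 60716 to 89405 CPM. The summed levels of fibroblast markers were 2377, 5735, 5694 and 5295 CPM at d1, d4, d7 and d14, those of macrophage markers 348.6, 275.2, 320.9 and 788.9 CPM, and those of endothelial markers 720.4, 1030, 975.1 and 1102 CPM. Lymphocyte markers were near 0, at 0.62 CPM at d1 and at most 9.53 CPM later. The part of cell composition, and of the lower depth at d14, in the results below was not tested. In spots that pool cells, fewer cells in S phase and less replication RNA per cell cannot be told apart.

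Summed over the 35 members, replication RNA was nearly as high at d1 as at d4 and then fell. In day order the members gave 4657, 9392, 5117 and 1448 UMIs, which are 1444 CPM (1403 to 1486), 1606 CPM (1574 to 1639), 918.9 CPM (893.9 to 944.4) and 336.4 CPM (319.3 to 354.2). The d4 sum was 1.11-fold the d1 sum (1.07 to 1.15), or 0.98-fold (0.94 to 1.01) when libraries were scaled by the trimmed mean of M values (TMM). The d7 sum was 1.75-fold below d4 (1.69 to 1.81), and the d14 sum was 4.78-fold below d4 (4.52 to 5.05). The mitotic genes followed another course. They gave 640.7, 1992, 1125 and 170.7 CPM, a 3.11-fold higher level at d4 than at d1 (2.97 to 3.26) and an 11.7-fold lower level at d14 than at d4 (10.8 to 12.6).

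**Figure D1:**
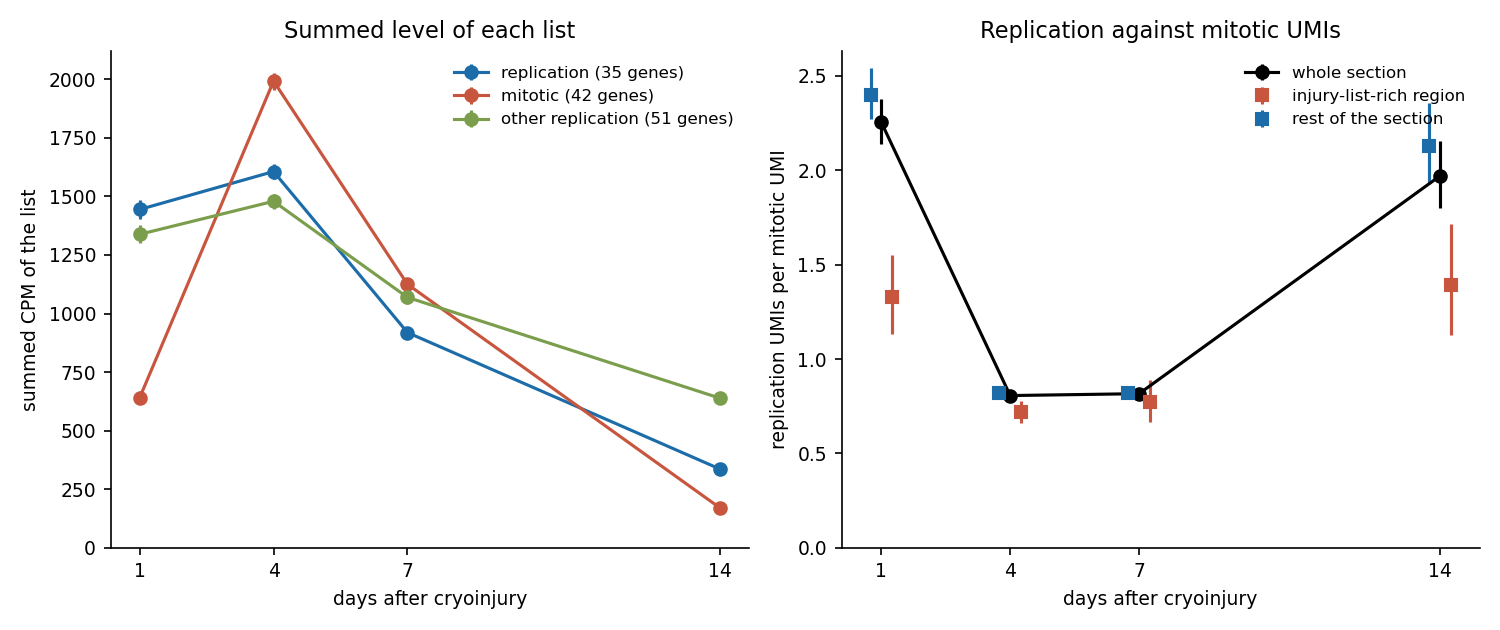
Left, summed CPM of the 35 members (blue), 42 mitotic genes (red) and 51 other replication genes (green) against days after cryoinjury. Right, replication UMIs per mitotic UMI in the whole section (black), the injury-list-rich region (red squares) and the rest (blue squares), with exact 95% counting intervals. The members stand at 1444 and 1606 CPM at d1 and d4 while the mitotic genes go from 640.7 to 1992 CPM, so the ratio falls from 2.25 to 0.81 and is 1.97 again at d14.

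Because both sums come from the same library, their ratio does not depend on how libraries are scaled. The d1 section had 2.25 replication UMIs per mitotic UMI (2.14 to 2.38) and the d14 section 1.97 (1.801 to 2.156), against 0.81 in the d4 section (0.78 to 0.83) and 0.82 in the d7 section (0.79 to 0.85). The first and last sections thus had an excess of replication over mitotic UMIs, and d4 and d7 had fewer replication than mitotic UMIs, with nearly equal ratios in those 2 sections. A ratio of 1 has no meaning of its own here, since the lists hold 35 and 42 genes. The excess at d14 sat at a much lower level of both lists than at d1. At d14 a few genes gave much of each sum. Pcna, Rpa1, Rfc2, Dut and Rpa2 gave 221, 159, 147, 139 and 87 of 1448 member UMIs, and Cenpa gave 195 of 735 mitotic UMIs. The ratio without these genes was not computed. The other replication genes gave 2.09, 0.74, 0.95 and 3.74 UMIs per mitotic UMI.

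Between d1 and d4 the median log2 ratio per gene was 0.11 for the 34 members with a mean of 5 CPM or more over the 4 sections (all but Cdc6, at 4.92 CPM), 1.57 for 41 mitotic genes, 0.24 for 44 other replication genes and 0.19 for all genes with that mean. Under TMM scaling, which lowers every d4 to d1 ratio by the same factor, the median of the members turned to -0.08 and that of all genes to 0.01. In either scaling the members stood close to the middle of all genes. No member was 2-fold or more higher with an interval above 1, against 6.85% of all genes, and none was 2-fold or more lower, against 1.78%. By the same rule 40 of 41 mitotic genes were higher at d4, and 40 mitotic genes had a ratio above that of every member. The remaining mitotic gene was Pbk, a mitotic kinase named after its values were seen, with a ratio of 1.64.

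The steps d4 to d7 and d7 to d14 share the d7 section, and the comparisons of d7 and d14 with d4 share d4, so they are given side by side. From d4 to d7 the median log2 ratio was -0.88 for members, -0.89 for mitotic genes, -0.63 for other replication genes and -0.21 for all genes. No member was 2-fold higher (1.06% of all genes) and 9 of 34 were 2-fold lower (3.00% of all genes). Intervals lay below 1 for 32 of 34 members and for 3917 of all 10707 genes. The number past 2-fold was 2 under TMM scaling (1.41% of all genes), 17 when totals included all genes (4.32%), and 14 without the 10% of spots richest in members (3.25%). Those spots were picked by their member UMIs, so leaving them out lowers member levels in every section by construction. The quartiles of the members' log2 ratios were -1.02 and -0.68, so many lay near a ratio of 0.5. From d7 to d14 the median was -1.92 for members, -3.24 for mitotic genes, -0.96 for other replication genes and -0.04 for all genes. None of the members was 2-fold higher (4.93% of all genes) and 29 of 34 were lower (5.50%), as were 40 of 41 mitotic genes. In these sections, members and mitotic genes were lowered by similar amounts to d7, and the mitotic genes by more to d14.

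At d7 the members stood below their d1 level and the mitotic genes above theirs. The d7 to d1 median was -0.65 for members and 0.67 for mitotic genes, with all genes at -0.01. No member was 2-fold higher (4.52% of all genes) and 6 were 2-fold lower (3.45%), Gins1, Cdt1, Cdc45, Hells, Rfc5 and Mcm5, whereas 15 mitotic genes were 2-fold higher and none lower. Of the mitotic genes 39 had a ratio above that of every member. Of the members with the mean minimum, 23 of 34 followed the order d4, d1, d7, d14 from high to low and 1 the order d4, d7, d1, d14, which was the order of 39 of 41 mitotic genes. No mitotic gene followed the first order. How many of all genes followed each order was not counted. Under TMM scaling 14 members had the order d4, d1, d7, d14 and 18 the order d1, d4, d7, d14, and 39 mitotic genes again had the order d4, d7, d1, d14.

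At d14 no member was 2-fold higher than at d1 (7.64% of all genes) and 32 of 34 were 2-fold lower (8.14%), and against d4 none was higher (4.88%) and 32 were lower (11.1%). The exceptions were Rfc2 and Rpa1 against d1 and Rpa1 and Pold1 against d4. Median log2 ratios of d14 against d4 were -2.76 for members, -4.06 for mitotic genes, -1.41 for other replication genes and -0.27 for all genes. Against d1 the medians were -2.483 for members, -2.495 for mitotic genes, -1.27 for other replication genes and -0.05 for all genes. Of 41 mitotic genes, 38 were 2-fold lower at d14 than at d1. All 35 members were lowest at d14, with 25 highest at d4 and 10 highest at d1. Under TMM scaling all 35 were again lowest at d14, but 16 were highest at d4 and 19 at d1. The 10 highest at d1 with the main scaling were Mcm2, Mcm3, Mcm5, Cdt1, Cdc45, Gins1, Hells, Rfc5, Pold1 and Pole, and with it all 42 mitotic genes were highest at d4. How many of all genes were highest at d4 or lowest at d14 was not counted. Of all genes with the mean minimum, 7449 of 10705 were higher at d4 than at d1 with the main scaling. At d14, 7299 of 10704 were lower than at d4, 5785 of 10707 lower than at d7 and 5759 of 10705 lower than at d1.

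**Figure D2:**
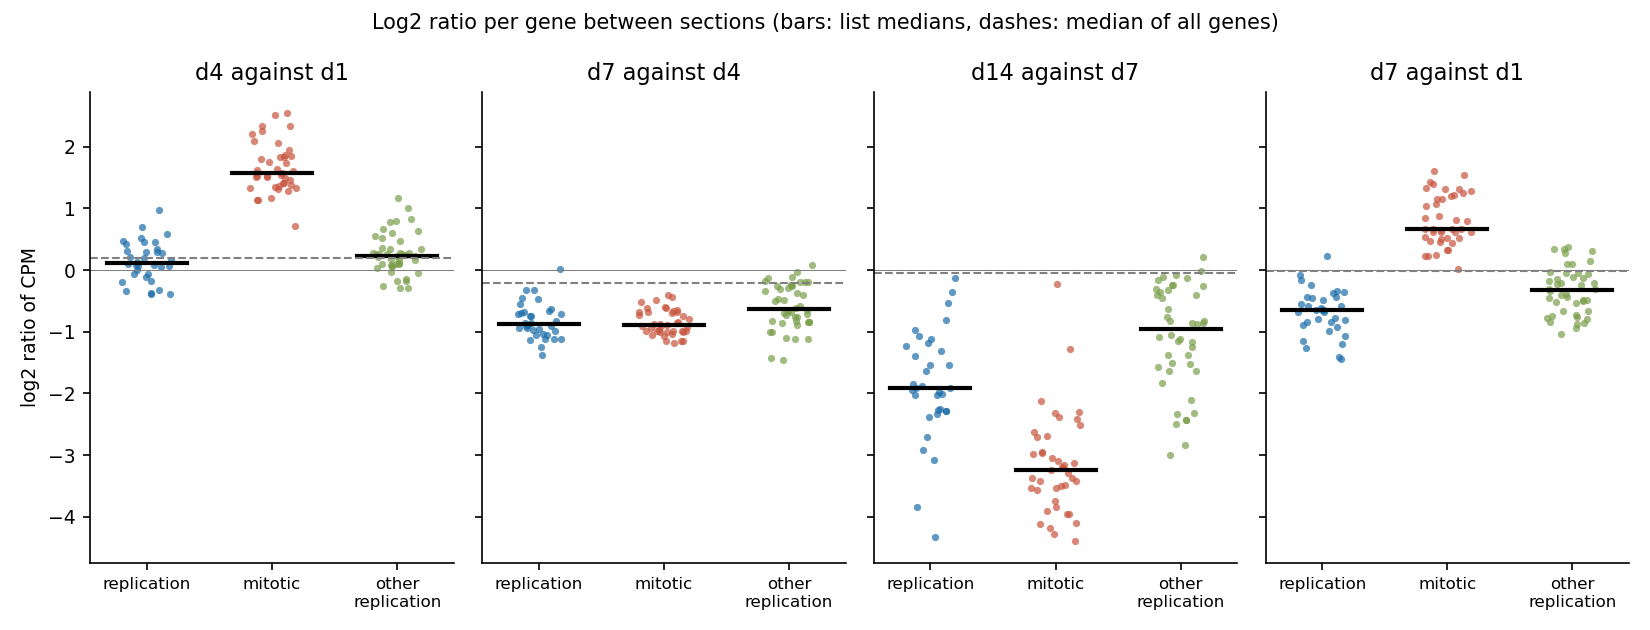
Log2 ratio of CPM (vertical axis) of each gene between the named sections, for 34 members (blue), 41 mitotic genes (red) and 44 other replication genes (green). Black bars are list medians and the dashed line is the median of all genes. The members sit at a median of 0.11 and the mitotic genes at 1.57 for d4 against d1, and at -1.92 and -3.24 for d14 against d7.

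The order of fall was measured as the part of the log2 fall from d4 to d14 that had been reached at d7. For summed CPM it was 35.7% for members, 23.3% for mitotic genes and 38.7% for other replication genes. Per gene the median was 31.7% for members (quartiles 27.3% and 37.0%) and 21.7% for mitotic genes (17.5% and 24.3%). By d7 the members had thus reached a larger part of their own, smaller fall from d4 to d14. The log2 fall of the sums to d7 was alike, 0.81 for members and 0.82 for mitotic genes, and that to d14 was 2.26 and 3.54. For the sums, the larger part in members therefore reflects their smaller fall to d14 and not a larger fall to d7. That smaller fall holds from d4, where the mitotic genes were highest. Between d1 and d14 the sum was 4.29-fold lower for members (4.05 to 4.56) and 3.75-fold lower for mitotic genes (3.45 to 4.09).

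The MCM2 to MCM7 proteins form the ring-shaped helicase that opens the double helix, and their 6 genes summed to 368.7, 376.8, 204 and 58.8 CPM. Mcm6 had 73.5, 91.0, 42.02 and 13.5 CPM at d1, d4, d7 and d14, the highest d4 level of the ring. Mcm7 had 65.8, 75.3, 38.1 and 15.3 CPM. Mcm4 had 33.5, 40.4, 22.8 and 6.04 CPM. These 3 genes were highest at d4, by 1.24-fold over d1 for Mcm6 (1.06 to 1.45), with intervals that included 1 for Mcm4 and Mcm7. The other 3 subunits were highest at d1. Mcm2 had 74.1, 58.3, 37.5 and 9.76 CPM. Mcm5 had 69.5, 61.8, 33.0 and 8.13 CPM. Mcm3 had 52.4, 50.1, 30.5 and 6.04 CPM. Of these 3 only Mcm2 had an interval below 1 for d4 against d1 (0.79, 0.67 to 0.93). At d14 all 6 stood between 12.1% (Mcm3) and 20.4% (Mcm7) of their d4 level.

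CDT1 and CDC6 load the helicase onto origins, and MCM10, CDC45 and the GINS proteins turn it on. Their summed level was 121.6 CPM at d4 against 136.5 CPM at d1, the lowest such ratio of the 9 roles, at 0.89 with an interval that included 1 (0.79 to 1.01). Cdt1 had 53.0, 40.7, 19.9 and 4.18 CPM, and its d4 to d1 ratio of 0.77 had an interval below 1 (0.63 to 0.94). Cdc45 had 24.2, 19.3, 10.1 and 4.65 CPM. Gins1 had 21.1, 16.1, 7.72 and 2.09 CPM. All 3 stepped down from each section to the next, and Cdt1 was 2.04-fold lower at d7 than at d4 and 9.74-fold lower at d14. Gins2 had 25.4, 26.9, 13.7 and 2.09 CPM, the last from 9 UMIs, and was 12.8-fold lower at d14 than at d4 (6.60 to 28.6). Mcm10 and Cdc6 were the least abundant, at most 8.72 and 9.92 CPM in any section and at 5 and 4 UMIs at d14.

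PCNA is the ring that holds polymerases on DNA, and RFC2 to RFC5 are subunits of the loader that closes it. Pcna was the most abundant member in all 4 sections, at 138.9, 161.5, 117.1 and 51.3 CPM. Rfc2 had 65.4, 69.4, 43.6 and 34.2 CPM. Both kept more of their d4 level at d14 than most members, 31.8% for Pcna and 49.2% for Rfc2, and Rfc2 was 2.03-fold lower than at d4 (1.68 to 2.47). Rfc3 had 26.7, 33.9, 20.7 and 7.90 CPM. Rfc4 had 28.5, 28.6, 20.8 and 5.81 CPM. Rfc5 had 25.4, 22.2, 11.5 and 4.88 CPM. These 3 loader subunits ended at 20.3% to 23.3% of d4, below Rfc2, whose interval did not overlap theirs. RFC2 to RFC5 also belong to other loaders, such as that of the checkpoint clamp.

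POLA1 and PRIM1 lay the primer, POLD1 copies mainly the lagging strand and POLE mainly the leading strand. Prim1 had 26.7, 28.1, 16.7 and 1.16 CPM. Pole had 18.9, 17.5, 14.0 and 0.70 CPM. At d14 these were 5 and 3 UMIs over 1175 spots, ratios to d4 of 0.041 (0.013 to 0.099) and 0.040 (0.0081 to 0.12), the lowest of all members. Pold1 differed from them, with 29.8, 22.9, 23.2 and 11.9 CPM. Its d7 level equalled that at d4 within counting error (ratio 1.01, 0.79 to 1.297), and its d14 level was 1.94-fold below d4 (1.39 to 2.73). Pola1, at 4.18 to 14.0 CPM, was between these, with 29.8% of d4 left at d14. By d7 Pole had reached 6.8% of its log2 fall, and the polymerase and primase genes as a group were 1.32-fold lower at d7 than at d4, the smallest fold of the 9 roles.

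RPA coats single-stranded DNA in replication and also in DNA repair. Rpa1 had 59.5, 66.4, 53.3 and 36.9 CPM. Rpa2 had 41.9, 45.7, 22.1 and 20.2 CPM. These were the flattest members with Rfc2 and Pold1. Rpa1 was 1.797-fold lower at d14 than at d4 (1.49 to 2.175), while Rpa2 was 2.07-fold lower already at d7 and its d14 to d7 ratio was 0.92 (0.69 to 1.21). FEN1 trims and LIG1 seals Okazaki fragments. Fen1 had 27.6, 28.6, 17.6 and 6.04 CPM. Lig1 had 31.9, 44.1, 23.7 and 4.88 CPM. Lig1 was 1.38-fold higher at d4 than at d1 (1.10 to 1.75) and 9.05-fold lower at d14 than at d4, against 4.73-fold for Fen1.

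**Figure D3:**
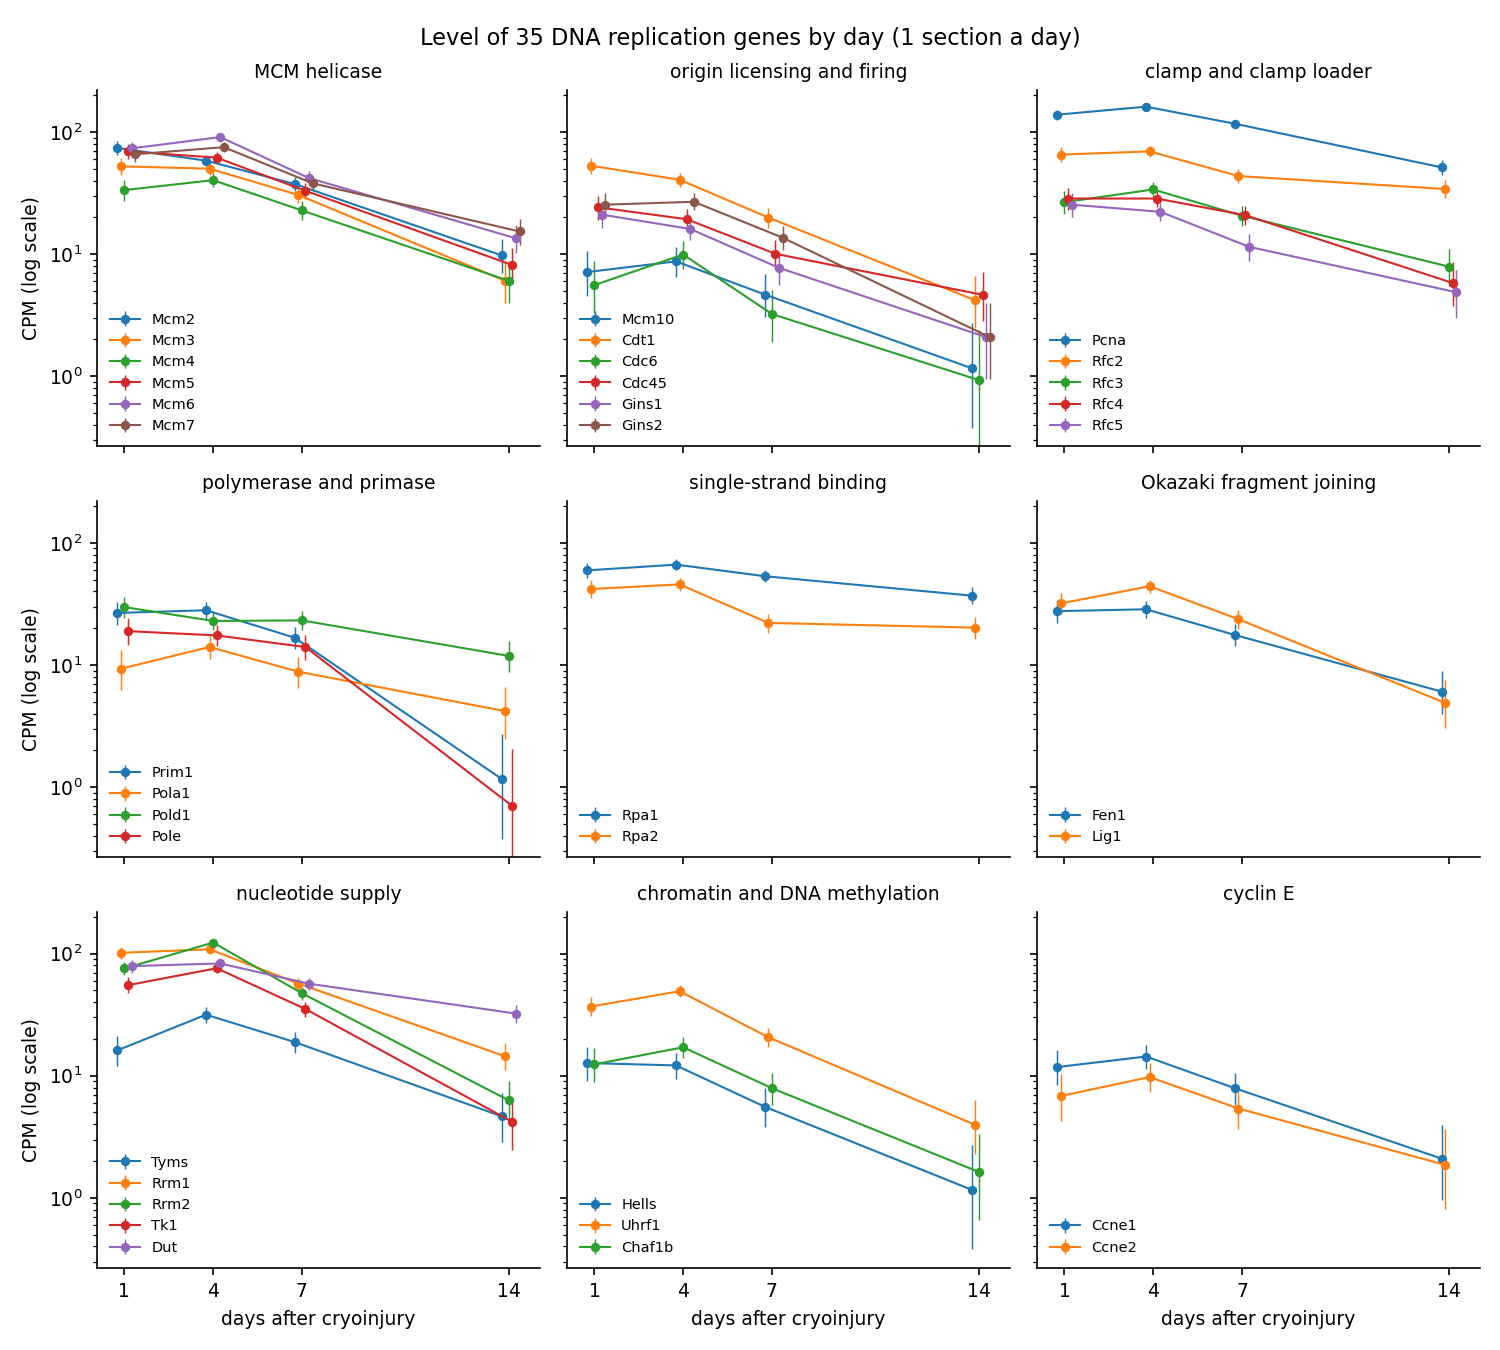
CPM of the 35 members on a log axis against days after cryoinjury, in 9 panels by role, with exact 95% counting intervals; points are shifted slightly sideways within a day. Pcna is the highest member at every day and ends at 51.3 CPM, and Pole and Prim1 drop from 14.0 and 16.7 CPM at d7 to 0.70 and 1.16 CPM at d14.

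The enzymes that supply deoxynucleotides summed to 422.7 CPM at d4 against 327.8 CPM at d1 (1.29-fold, 1.199 to 1.387), the highest such ratio of the roles whose interval lay above 1. RRM2 is the S phase subunit of ribonucleotide reductase, and Rrm2 had 75.7, 123.3, 47.4 and 6.27 CPM. RRM1 is its partner subunit, and Rrm1 had 101.7, 108.6, 56.9 and 14.4 CPM. The 2 subunits differed in size of change. Rrm2 was 1.63-fold higher at d4 than at d1 (1.41 to 1.89) and Rrm1 1.07-fold (0.93 to 1.22), and at d14 5.09% of the d4 level was left for Rrm2 and 13.3% for Rrm1. Thymidylate synthase makes dTMP anew, and Tyms had 16.1, 31.6, 18.9 and 4.65 CPM. Thymidine kinase 1 recovers thymidine, and Tk1 had 55.2, 75.9, 35.2 and 4.18 CPM. Tyms had the highest d4 to d1 ratio of the measured members, 1.96 (1.44 to 2.72), and Tk1 stood at 1.38 (1.15 to 1.65). Dut, the enzyme that keeps uracil out of DNA, had 79.1, 83.1, 56.8 and 32.3 CPM and kept 38.8% of its d4 level at d14.

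UHRF1 brings DNA methylation to the daughter strands, HELLS is a chromatin remodeller and CHAF1B belongs to the complex that places histones behind the fork. Uhrf1 had 36.9, 49.3, 20.7 and 3.95 CPM, 2.39-fold lower at d7 than at d4 and 12.5-fold lower at d14. Chaf1b ranged from 1.63 CPM at d14 to 17.1 CPM at d4 and Hells from 1.16 CPM at d14 to 12.7 CPM at d1. The 3 genes together stood at a ratio of 0.086 at d14 against d4 (0.057 to 0.12), the lowest of the 9 roles. The cyclins E that drive entry into S phase were scarce, with Ccne1 at 2.09 to 14.4 CPM and Ccne2 at 1.86 to 9.75 CPM, both highest at d4 and lowest at d14.

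**Figure D4:**
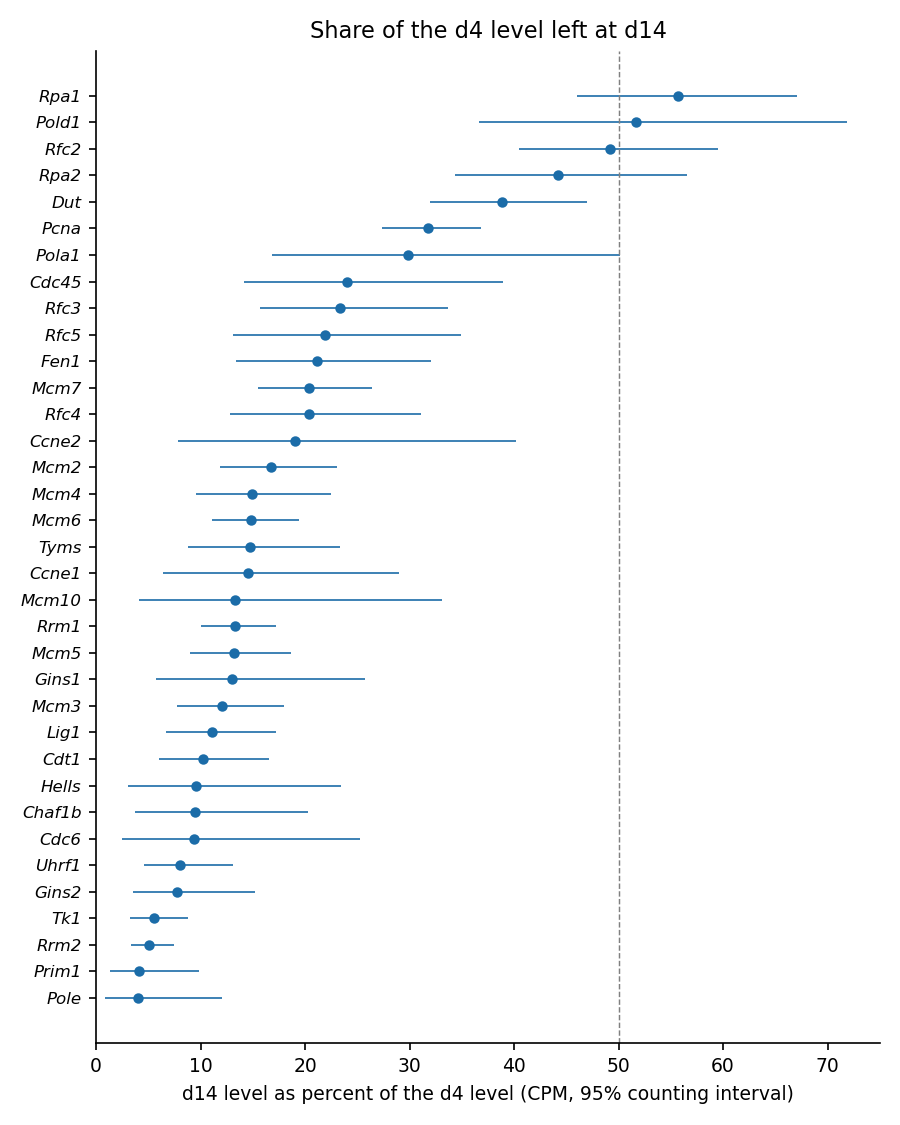
Level at d14 as percent of the level at d4 for each of the 35 members, sorted, with exact 95% counting intervals; the dashed line marks 50%. Pole, Prim1, Rrm2 and Tk1 are at 4.00% to 5.51%, and Rpa1, Pold1 and Rfc2 at 49.2% to 55.7%.

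Among the 51 other replication genes, 44 had the mean minimum. Between d1 and d4, Asf1b, a histone chaperone, was 2.26-fold higher and Pold4, a small subunit of polymerase delta, 2.01-fold higher, and none was 2-fold lower. Against d4, 28 of 44 were 2-fold lower at d14. They included Dnmt1, which copies DNA methylation (71.3 to 15.3 CPM), Cdk2, the partner of cyclin E (52.0 to 13.9 CPM), E2f1, a transcription factor of S phase entry (33.4 to 3.95 CPM), and Wdhd1, a fork protein (12.3 to 0.93 CPM). Clspn, a checkpoint mediator, had no UMI at d14 and 9.41 CPM at d4. The most abundant gene of the list, Rbbp4, a histone binding protein of several chromatin complexes, had 147, 129.5, 113 and 90.4 CPM and was not past the rule. Of the 28 members with both a promoter entry and the mean minimum, the 11 with an E2F site had a median log2 ratio of d14 to d4 of -2.93 and the 17 without one of -2.58, with ranges that overlapped (-3.64 to -0.95 and -4.59 to -0.85).

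Over the tissue, replication RNA was spread widely. In day order a member UMI was found in 97.3%, 99.85%, 99.1% and 66.3% of spots. The exact binomial interval at d14 was 63.5% to 69.0%, taken over spots, which are no replicates. Since the d14 spots were shallower, each spot was thinned to 2500 UMIs, leaving out 40, 3, 3 and 131 shallower spots. The share with a member UMI was then 93.6%, 97.1%, 83.4% and 51.3%, and the share with a mitotic UMI was 69.6%, 98.3%, 87.7% and 30.2%. At equal depth the members were thus found in more spots than the mitotic genes at d1 and d14, and in slightly fewer at d4 and d7.

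Spots differed in member UMIs by more than Poisson counting at their depth gives, by a variance ratio of 2.14, 1.60, 1.62 and 1.22 in day order. For the mitotic genes the ratio was 2.44, 2.96, 2.86 and 1.32. Counts were not thinned for these ratios. For the same relative spread such a ratio grows with the mean count, so it does not rank days or lists by evenness. When spots were ranked into 4 equal groups by their share of mitotic UMIs, member CPM at d1 was 1188, 1364, 1465 and 1682 from the lowest to the highest group, a ratio of 1.42 between the outer groups (1.29 to 1.55). At d4 the groups had 1389, 1589, 1647 and 1739 CPM (1.25-fold) and at d7 779, 900.5, 877 and 1121 CPM (1.44-fold). At d14, 683 of 1175 spots had no mitotic UMI and could not be ranked. There the 492 spots with a mitotic UMI had 357.3 CPM of members and the others 319.4 CPM (1.12-fold, 1.01 to 1.24). Spots rich in mitotic RNA had more replication RNA at d1, d4 and d7, and the lowest group of spots still held most of the level of the highest. At d14 the difference was small. The lowest group was also shallower than the highest at d1 and d4, with median UMIs of 5276 against 7911 and 6790 against 10191. At d7 the medians were 7823 and 7976. The lowest group held all 60 spots without a mitotic UMI at d1. The part of depth in these differences was not tested. The correlation over spots, taken on the thinned counts, was weak, with Spearman rho of 0.16, 0.12, 0.08 and 0.04 in day order. Mean thinned counts per spot were 3.388, 3.7, 2.014 and 0.7653 UMIs for members. For mitotic genes they were 1.486, 4.528, 2.549 and 0.3879 UMIs. Counting error at such low counts was not separated from rho. It therefore does not show how closely the lists go together in tissue, or rank the days. Spots of a section are also neighbours that share a library.

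**Figure D5:**
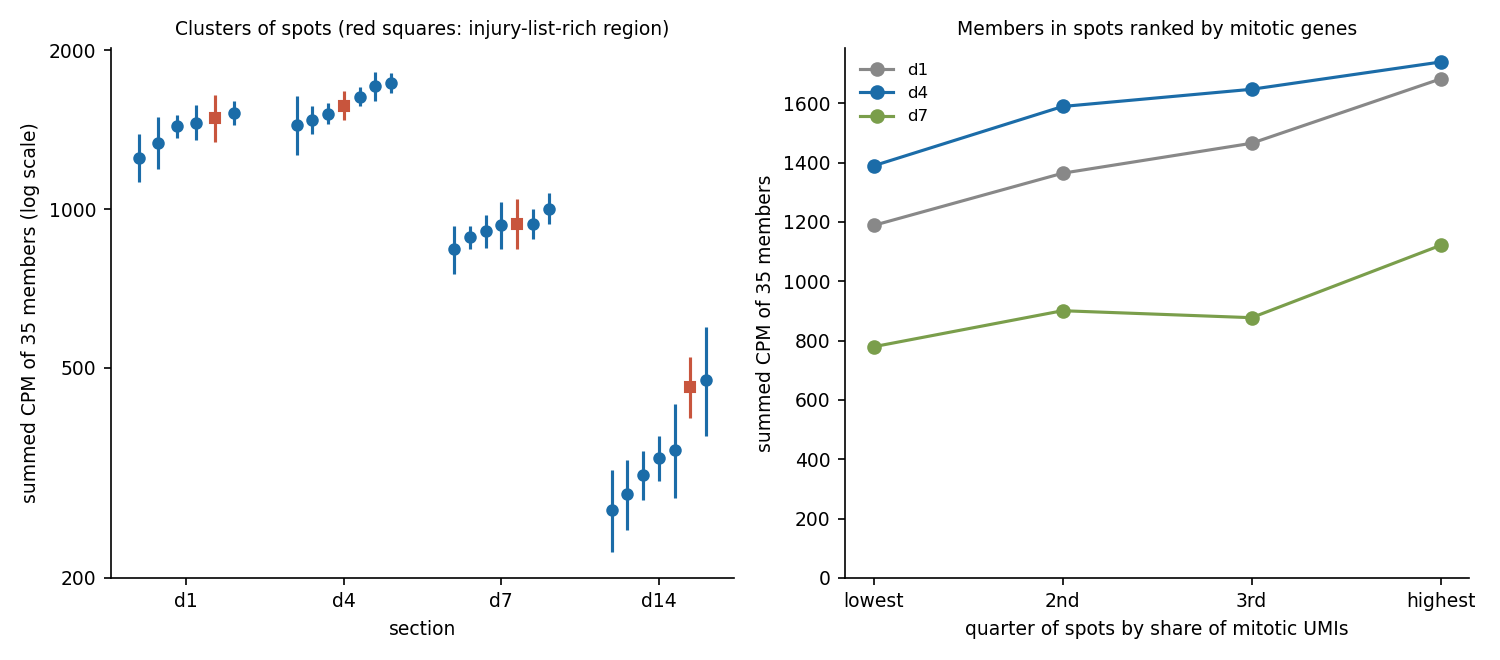
Left, summed CPM of the 35 members on a log axis in each cluster of spots of the 4 sections, with exact 95% counting intervals; red squares are the injury-list-rich regions. Right, summed CPM of the members in 4 equal groups of spots of d1, d4 and d7, ranked by their share of mitotic UMIs. Clusters span 1253 to 1521 CPM at d1 and 268.5 to 475 CPM at d14, and d1, d4 and d7 are each higher in the highest than in the lowest group of spots.

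Each section was clustered without the members, the other replication genes and the mitotic genes, and the cluster with the largest share of 16 injury genes was taken as its injury-list-rich region, of 40, 52, 54 and 123 spots. The injury genes were Fn1, Tnc, Postn, Lgals3, S100a8, S100a9, Spp1, Col1a1, Col1a2, Col3a1, Thbs1, Timp1, Cthrc1, Lyz2, Cd68 and Arg1. The leading genes of the region, ordered by the lower limit of the ratio of region to rest, were Spp1, Gpnmb and Lgals3 at d1, Ccn5, Tagln and Cthrc1 at d4, Wfdc18, Osr1 and Ccl21a at d7, and Gpnmb, Thbs4 and Lgals3 at d14. Of these, Spp1, Lgals3 and Cthrc1 are injury genes by which the region was chosen. Eln, further down the order, stood at 14.98-fold the rest at d4, 37.98-fold at d7 and 6.432-fold at d14. Mural markers had 1766, 3478, 1307 and 1916 CPM in the region in day order. The whole sections had 1173, 1347, 1178 and 1740 CPM of them. The leading genes thus differed in part between days. Whether the region is the same kind of tissue on each day was not tested. The members did not stand out there at d1 (1.03-fold the rest of the section, 0.93 to 1.15), d4 (0.98, 0.91 to 1.04) or d7 (1.02, 0.91 to 1.14), and were higher at d14 (1.43, 1.24 to 1.66). The mitotic genes were higher in the region at d1 (1.87, 1.64 to 2.12), slightly at d4 (1.11, 1.05 to 1.18) and again at d14 (2.20, 1.83 to 2.62), with 1.09 at d7 (0.99 to 1.2). Replication UMIs per mitotic UMI were therefore lower in the region than in the rest at d1 (1.33 against 2.40) and d14 (1.39 against 2.13), with 0.72 against 0.82 at d4 and 0.77 against 0.82 at d7. At d1 the region held 7074 CPM of fibroblast and 2069 CPM of macrophage markers, against 2377 and 348.6 CPM in the whole section, and at d14 it held 13802 and 1745 CPM against 5295 and 788.9 CPM. The regions of d4 and d7, where the ratio differed less from the rest, were also rich in them, with 18583 and 1104 CPM against 5735 and 275.2 CPM at d4 and 25826 and 1241 CPM against 5694 and 320.9 CPM at d7. The injury genes include the fibroblast markers Col1a1, Col1a2 and Col3a1 and the macrophage markers Cd68 and Lyz2. High levels of these markers in the regions thus follow in part from how the regions were chosen. The part of these cells in the ratios was not tested.

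Single members differed between region and rest in few cases. Intervals lay above 1 for 2 of 34 members at d1 (14.6% of all genes), for 3 at d4 (20.5%), for 1 at d7 (18.2%) and for 4 at d14 (18.2%), and below 1 for 1 member at d1 (6.58%), for 2 at d4 (14.9%), for 2 at d7 (9.27%) and for 0 at d14 (6.86%). In each section and direction the share of members was below that of all genes, and most members had few UMIs in a region. Tyms was higher in the region at d4, at 62.1 against 27.9 CPM (2.23-fold, 1.53 to 3.18), and at d14, at 14.6 against 3.40 CPM (4.28-fold, 1.45 to 11.6). Rrm2 was lower in the region at d4, at 77.7 against 129 CPM (0.60, 0.44 to 0.80), and higher at d14, at 18.7 against 4.71 CPM (3.98-fold, 1.57 to 9.32), the latter from 9 region UMIs. Dut was lower in the region at d4 (0.55, 0.37 to 0.79) and at d7 (0.52, 0.25 to 0.94). The others at d14 were Mcm4 and Tk1, with 7 and 6 region UMIs.

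Across all clusters, summed member levels ran from 1253 to 1521 CPM at d1 (1.21-fold), 1445 to 1733 CPM at d4 (1.199-fold), 838.7 to 1003 CPM at d7 (1.196-fold) and 268.5 to 475 CPM at d14 (1.77-fold). The mitotic genes spanned 2.46-fold, 1.79-fold, 1.37-fold and 2.44-fold over the same clusters. At d14 the 2 highest clusters were the injury-list-rich region, at 459.7 CPM, and a cluster of 43 spots with 4913 CPM of mural markers, at 475 CPM (372.3 to 597.2), against 1740 CPM of mural markers in the whole section. Even these were below every cluster of d7, the lowest of which stood at 838.7 CPM.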

How the data were processed

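Visium libraries of 4 heart sections, 1 a day, were analysed. The deposited raw UMI counts per gene and spot are the authors' own; the file headers name Space Ranger 1.3.0, and the submitters' processing notes add the build mm10 and Seurat 4.1.1. Spots with 500 or more UMIs were kept and their counts summed per section (3224558 to 5846389 UMIs after leaving out 8 haemoglobin and 13 mitochondrially encoded genes, the total behind CPM). Single levels have exact Poisson 95% intervals and ratios exact conditional binomial (Clopper-Pearson) ones, and UMI counting error is all they cover. A gene was called past the rule of size at a ratio of 2 or more, or 0.5 or less, with an interval excluding 1, among 10707 genes with a mean of 5 CPM or more. A gene at 0 in 1 section entered at 3 counts. Spots were clustered per section with scanpy 1.11.5 (2000 variable genes, 15 components, Leiden resolution 0.8). Doublets do not apply to spots. TMM factors came from edgeR 4.0.16, used for scaling only. Ratios and intervals were tested on simulated data. Values in all sections are given for the 28 members with a mean of 10 CPM or more and ranges for the others; of the other lists, the most abundant genes and those past the rule were named. Members and lists were chosen with earlier results of these data known. Promoter sequences are RefSeq's, and motifs were matched letter by letter. Alternatives varied the scaling, the spots kept, the mean minimum, the thinning, the clustering and the promoter window. Positions of spots and images were not used here.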

Additional observations from a re-analysis of the deposited data

How the results depend on the processing

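Of 220 values of the comparisons computed under an alternative, 189 stayed within the interval of the main value or, for counts of members, within 1.5 times the count. Another 30 moved and 1 turned, the d4 to d1 median of the members (-0.0765 under TMM). The interval was binomial over listed genes for medians and promoter shares, over spots for thinned shares, and a counting interval otherwise. Genes and spots are no replicates, so the tally is a description only. Added after seeing the data, the d4 to d1 ratio of the summed members also turned under TMM, to 0.977. TMM shifted the median of all genes by -0.19 for d4 against d1, 0.21 for d7 against d4 and 0.25 for d14 against d4, and totals over all genes shifted it by -0.11 for d7 against d4 and d7 against d1. The share of higher genes among all genes past the rule went under TMM from 79.3% to 62.6% (d4 against d1), 26.0% to 51.9% (d7 against d4) and 30.5% to 50.4% (d14 against d4), and with totals over all genes from 56.7% to 45.7% (d7 against d1). The d7 to d4 median of the members was -0.99 with totals over all genes and -0.67 under TMM, and 17, 2 and 14 members were 2-fold lower with totals over all genes, TMM and without the 10% of spots richest in members (4.32%, 1.41% and 3.25% of all genes). With spots of 1500 or more UMIs, or without those 10%, 1 member was 2-fold higher at d4 than at d1 (739 and 740 of 10707 genes). At a mean of 20 CPM or more, which leaves 20 members, 15 were lower at d14 than d7 (3.34% of all genes with that mean), 2 at d7 than d1 (2.05%), 18 at d14 than d1 (5.22%) and 18 at d14 than d4 (7.14%). Replication UMIs per mitotic UMI at d1 were 2.40 without the injury-list-rich region, 2.13 without the richest 10% of spots and 2.52 without Mki67 and Top2a. Leaving out the richest 10% gave 0.765 at d4, 0.758 at d7 and 1.61 at d14, and leaving out Mki67 and Top2a gave 0.893 at d4 and 0.892 at d7. The richest spots were picked by their member UMIs, which lowers member levels in every section by construction. Values without them are therefore no independent check. Leaving out mitotic genes can only raise the ratio. The part of the fall reached by d7 was 39.6% for members and 25.9% for mitotic genes with totals over all genes, 29.7% and 18.6% under TMM, and 22.0% for mitotic genes without the region. Thinned to 1500 UMIs, 85.4%, 87.3%, 69.1% and 34.9% of spots had a member UMI. In the window from 100 bases before the start to the start, the E2F site lay in 10.3% of members and the CHR element in 24.3% of mitotic genes. Of 1008 values of single members 994 stayed inside their counting interval and 0 turned while past 2-fold; 8 calls were lost, all under TMM, and 27 gained. No paired analysis was possible because each day has 1 section and no test was made.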
